A study of Mus musculus with 2 samples.

Results

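The Id genes encode small helix-loop-helix proteins that lack the basic region needed to bind DNA. They were chosen by symbol as *Id1*, *Id2*, *Id3* and *Id4*, and 2 of these 4 genes, *Id2* and *Id3*, were analysed among the 10666 genes of the expression table. *Id1* and *Id4* were not analysed here. The data are single-cell RNA-seq profiles of mouse cortical neurospheres, which are spheres of neural stem and progenitor cells grown in suspension. The cells came from the dorsal telencephalon of wild-type C57BL/6 embryos at embryonic day 14.5 and were grown in medium with 10 ng/ml EGF and 10 ng/ml bFGF. There were 2 replicate cultures of this 1 condition, with 5748 cells in culture 1 and 7057 cells in culture 2, and no second group. Growth with both factors is common to all cells, and neurospheres hold a mixture of radial glia-like, glial and neuronal progenitors rather than the layers of the cortex.

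Id proteins dimerise with E proteins, the partners of proneural and oligodendroglial basic helix-loop-helix factors, and so keep these factors from binding DNA. Bone morphogenetic proteins (BMPs) bind serine/threonine kinase receptors, which phosphorylate SMAD proteins, and Id genes are among the best known direct targets of these SMADs. In the embryonic forebrain, Id proteins are known for holding progenitors back from neuronal differentiation and for taking part in the astroglial response to BMP.

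*Id2* (ENSMUSG00000020644) lies on the minus strand at chr12:25093799-25097140 and *Id3* (ENSMUSG00000007872) on the plus strand at chr4:136143497-136145755, in GRCm38 with the GENCODE vM21 annotation. No other annotated gene overlaps either of them. The 250 bases before the RefSeq start site were searched on both strands for 6 short motifs. The letters GGCGCC form a GC-rich site bound by BMP SMADs, and GTCTG is the SMAD box. The E-box, CANNTG, is bound by basic helix-loop-helix dimers. The remaining motifs are general promoter letters, namely the CCAAT box, the GC box with letters GGGCGG, and TATAA of the TATA box. For *Id2* the stretch that lies outside every annotated exon is printed below from the RefSeq promoter table (GRCm38.p6), because it holds both the SMAD and the E-box match. Its 89 bases span chr12:25096254-25096342 on the minus strand, are written 5′ to 3′, and have the motif matches in capitals.
Id2: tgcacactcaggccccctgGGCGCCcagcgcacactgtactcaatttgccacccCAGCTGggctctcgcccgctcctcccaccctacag

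The GGCGCC match began 231 bases and the CAGCTG match 196 bases before the *Id2* start. The rest of the *Id2* window, which an exon of a longer transcript covers, held 3 matches to the CCAAT box and 1 to the GC box, counting both strands. The *Id3* window (chr4:136143572-136143821) falls in the first exon of a longer annotated transcript and is not printed. It held 2 matches to the SMAD box, beginning 167 and 68 bases before the start, 2 overlapping matches to the GC box, and a TATA box match 29 bases before the start. The windows of *Id2* and *Id3* thus had the GC box in common and no other of these motifs. Among 32851 promoter windows of the same length, 9.59% held GGCGCC, 42.2% the SMAD box, 66.2% the E-box, 33.8% the CCAAT box, 32.7% the GC box and 22.8% the TATA box letters. These matches describe letters only, and binding was not measured.

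The median depth was 19477 UMIs per cell in culture 1 and 14637 in culture 2, and 48 cell barcodes occurred in both cultures. Markers of radial glia, the neural progenitors of the embryonic cortex, were found in unequal shares of cells. *Fabp7*, a fatty acid-binding protein of radial glia, was detected in 100% and 99.96% of cells of culture 1 and culture 2, and *Nes*, the intermediate filament nestin, in 93.3% and 89.8%. *Sox9*, a SOX factor of radial glia and glial progenitors, was detected in 74.3% and 45.0%, *Pax6*, a factor of cortical progenitors, in 21.1% and 23.1%, and *Hopx* in 22.2% and 17.1%. The scale of an expression value is not the same in both cultures for the Id genes. After each value was multiplied by the total UMIs of its cell over their mean, the 10th percentile of the nonzero values was 1.51 in culture 1 and 0.671 in culture 2 for *Id2*, and 1.17 and 0.493 for *Id3*. A gap of over 1.5-fold between the cultures was found for 11.9% of the 9797 genes compared. Mean values and shares of cells above 0 are therefore given within each culture and are not set against each other across cultures, nor are levels of *Id2* set against those of *Id3*.

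*Id2* was detected, with a value above 0, in most cells of both cultures. In culture 1 this held for 3683 of 5748 cells, or 64.1% (exact 95% binomial interval 62.8 to 65.3%, which covers counting error only), and in culture 2 for 5647 of 7057 cells, or 80.0% (79.1 to 80.9%). The mean normalised value was 2.99 in culture 1, with a median of 1.58 and a 90th percentile of 7.83. In culture 2 the mean was 2.91, the median 2.08 and the 90th percentile 6.89. Expression was uneven over cells, and the top 10% of cells held 45.5% of the summed *Id2* value in culture 1 and 33.9% in culture 2.

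*Id3* was likewise found in most cells. It was above 0 in 4236 cells of culture 1, or 73.7% (72.5 to 74.8%), and in 6540 cells of culture 2, or 92.7% (92.0 to 93.3%). Its mean was 3.83 in culture 1, with a median of 2.13 and a 90th percentile of 9.72, and 5.65 in culture 2, with a median of 3.89 and a 90th percentile of 13.6. The top 10% of cells held 42.4% and 31.9% of the summed *Id3* value. For both genes the values thus ran from 0 to many times the median inside a single culture.

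**Figure D1:**
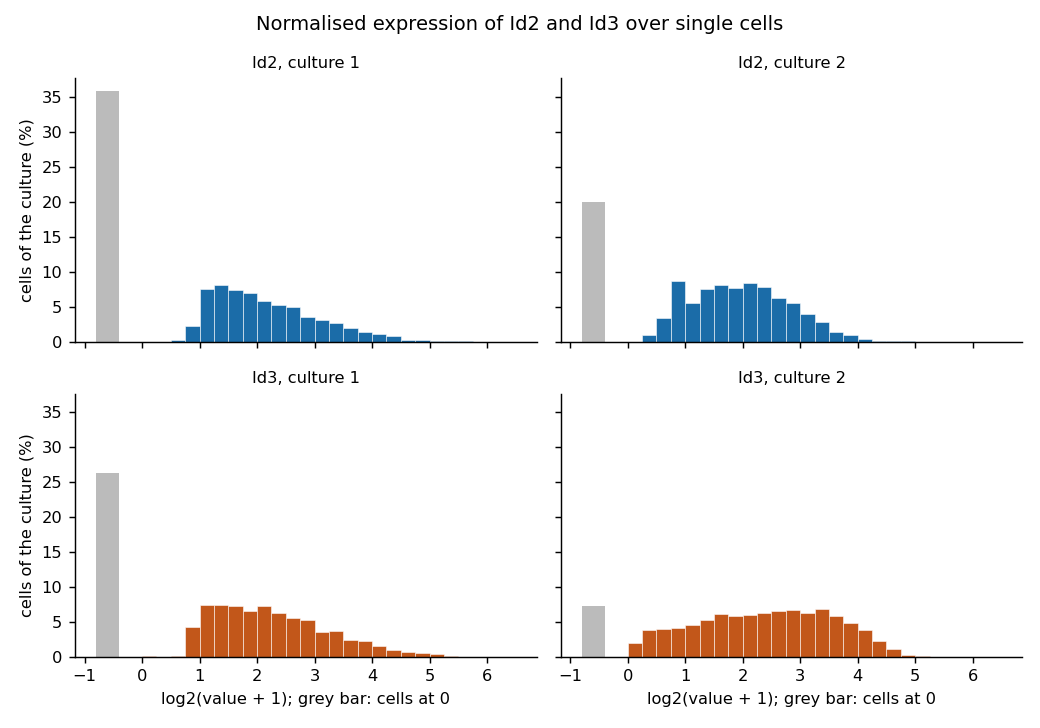
Share of cells (y axis, % of the culture) by normalised expression of *Id2* (top) and *Id3* (bottom), as log2(value + 1) in steps of 0.25 (x axis), in culture 1 (left) and culture 2 (right); the grey bar holds the cells at 0. Cells at 0 made up 35.9% and 19.98% for *Id2* and 26.3% and 7.33% for *Id3*, and the detected cells spread over one broad range in each panel.

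The depth of a cell went with both genes, in opposite directions in culture 1. Cells of each culture were cut by total UMIs into 4 groups of equal size. From the shallowest to the deepest group of culture 1, the mean *Id2* value went from 4.74 through 2.74 and 2.31 to 2.16, whereas mean *Id3* went from 2.28 through 4.04 and 4.58 to 4.44. In culture 2 the group means of *Id2* were 3.38, 2.86, 2.70 and 2.70 and those of *Id3* were 5.07, 5.95, 6.33 and 5.24. Cells of 12000 to 20000 total UMIs are used as a depth-matched set below, with 2360 cells of culture 1 and 4420 cells of culture 2.

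*Id2* and *Id3* were found in the same cells about as often as their single shares give, while their levels were correlated in culture 2 and not in culture 1. Over cells, Pearson's r of log2(value + 1) was 0.0048 in culture 1 and 0.205 in culture 2, and Spearman's rho was 0.011 and 0.207. Both genes were above 0 in 48.2% of cells of culture 1 (46.9 to 49.5%), where the product of the single shares gives 47.2%, and in 74.96% of cells of culture 2 (73.9 to 76.0%), where the product gives 74.1%. Where the single shares are high, as in culture 2, the share with both can depart little from their product. Among cells at 0 for *Id2*, *Id3* was above 0 in 71.1% in culture 1 and 88.6% in culture 2, against 73.7% and 92.7% of all cells. Cells with neither gene made up 10.4% and 2.28%. With log2 total UMIs taken out, r was 0.0339 and 0.207, and in the depth-matched cells it was 0.0138 and 0.230. With only 2 cultures this difference could not be tested.

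Mean *Id3* in culture 2 was higher in each successive class of cells ordered by *Id2*, which were the cells at 0 and 3 equal groups of the detected cells. It was 3.88 ± 0.12 (SE over cells) in cells at 0 for *Id2*, 5.23 ± 0.118 in the lowest group of *Id2*-detected cells, 5.97 ± 0.132 in the middle group and 7.07 ± 0.144 in the highest group. In culture 1 the same 4 classes had mean *Id3* of 3.30 ± 0.0969, 4.10 ± 0.141, 4.18 ± 0.159 and 4.11 ± 0.178, so by mean only the cells at 0 stood below the others. The share of cells with *Id3* above 0 was instead lowest in the highest group, at 66.8% against 71.1% in the cells at 0. That group was the shallowest of the 4, at a median of 16724 UMIs. Read the other way in culture 1, mean *Id2* was highest, at 3.76 ± 0.148, in cells at 0 for *Id3*, and these cells were also the shallowest, with a median of 15276 UMIs against 20518 to 20912 in the *Id3*-detected classes. The part of depth in this was not tested. SEs over cells describe cells of one culture and are not replicate errors.

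**Figure D2:**
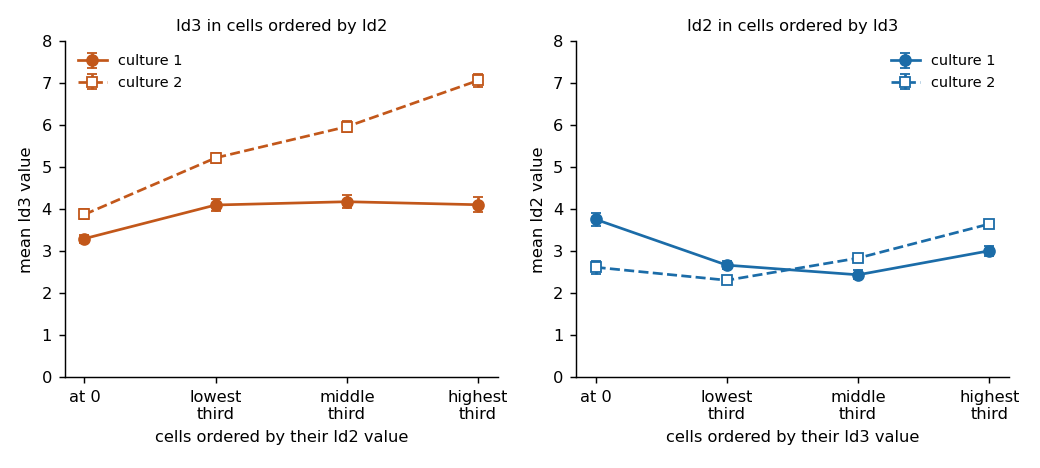
Mean *Id3* value in cells ordered by *Id2* (left) and mean *Id2* value in cells ordered by *Id3* (right), in culture 1 (filled circles, solid line) and culture 2 (open squares, dashed line); x axis, cells at 0 and the lowest, middle and highest of 3 equal groups of the detected cells; y axis, mean normalised value; bars, SE over cells. In culture 2 mean *Id3* went from 3.88 to 7.07 with *Id2*, while in culture 1 it was between 3.30 and 4.18.

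The study places each cell on a circular cell-cycle position between 0 and 2π, where the stretch from 0.25π to 1.5π is taken as S, G2 and M and the rest as G1/G0. Neither Id gene followed it closely. The share of variance (R²) of log2(value + 1) explained by 2 harmonics of the position was 0.0111 in culture 1 and 0.00809 in culture 2 for *Id2*, and 0.00564 and 0.0104 for *Id3*. A gene was called position-dependent where R² reached 0.05 in each of the cultures, which neither Id gene reached and 4.01% of all genes did. By the lower R² of the cultures, *Id2* ranked 1875th and *Id3* 2505th of 10666 genes. For scale, a periodic loess line explained 0.643 and 0.631 of the variance of *Top2a*, the G2/M topoisomerase, and 0.0067 and 0.0061 of that of *Id2*.

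The maxima of the small waves that the lines did show were not placed alike in the cultures. The *Id2* line was highest at 0.28π in culture 1 and at 0.785π in culture 2, and that of *Id3* at 0.65π and 0.375π. The lines spanned 0.54 and 0.35 on the log2 scale for *Id2* and 0.41 and 0.52 for *Id3*. At this span of 0.3 the 4 minima were between 1.43π and 1.565π, where cells are few. They moved to between 1.205π and 1.9π at a span of 0.1 and to between 1.355π and 1.675π at 0.5. In that region the arc from 1.25π to 1.5π held 85 and 279 cells of culture 1 and culture 2, and that from 1.5π to 1.75π held 64 and 189. The span is a share of the tripled data, so at 0.3 each point of a line drew on most cells of a culture. Arc means of *Id3* on the log2 scale were lowest from π to 1.25π in both cultures, at 1.47 and 2.04. These are not the places of the minima of the *Id3* lines at this span.

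**Figure D3:**
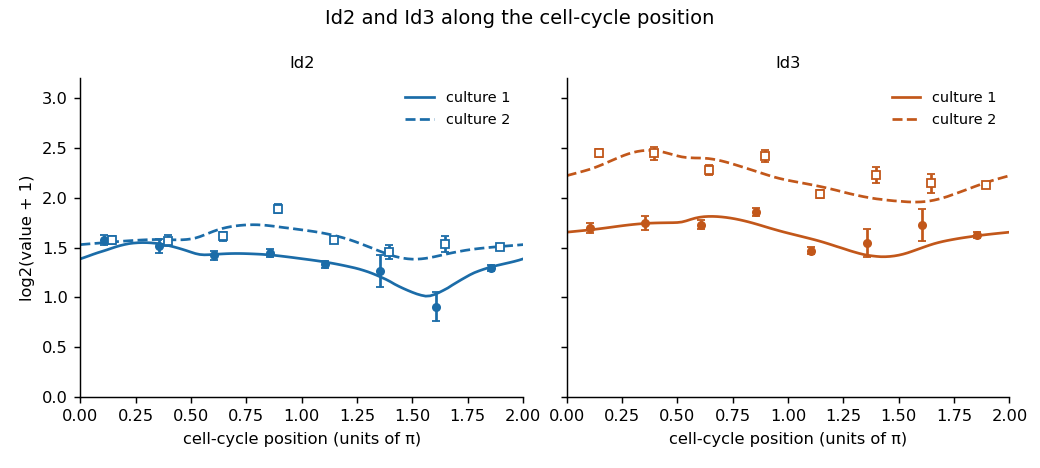
Mean log2(value + 1) (y axis) of *Id2* (left) and *Id3* (right) along the cell-cycle position (x axis, units of π) in culture 1 (solid line, filled circles) and culture 2 (dashed line, open squares); lines, periodic loess; points, means of 8 arcs with SE over cells. The lines of *Id2* ran between 1.01 and 1.55 in culture 1 and between 1.38 and 1.73 in culture 2.

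By cell-cycle stage, mean *Id3* was lower in G2/M cells than in G1 cells of both cultures. With the stages of Seurat, mean *Id3* was 4.02 ± 0.115 (SE over cells) in G1 and 3.34 ± 0.118 in G2M cells of culture 1, a ratio of 0.831, and 5.595 ± 0.0892 and 5.12 ± 0.128 in culture 2, a ratio of 0.916. With the stages of cyclone the ratios were 0.772 and 0.882. The share of cells with *Id3* above 0 did not follow the mean. With Seurat it was 71.4% in G1 and 73.5% in G2M cells of culture 1, and 92.2% and 92.7% in culture 2. With cyclone it was 74.0% and 71.6% in culture 1 and 92.7% and 92.9% in culture 2. The arc from π to 1.25π had a mean *Id3* of 2.97 in culture 1 and 4.72 in culture 2, the lowest of the 8 arcs in each. The arc before it, from 0.75π to π, had the highest of the 8 in each culture, at 4.37 and 6.90. Both arcs lie in the stretch taken as S, G2 and M. Mean *Id2* in G2M over G1 cells was 0.922 in culture 1 and 1.05 in culture 2, so its direction was not shared. In the S stage of Seurat, mean *Id3* was 3.9996 ± 0.119 in culture 1 and 6.40 ± 0.156 in culture 2. G2M cells were deeper than G1 cells, at a median of 21419 against 18355 UMIs in culture 1 and 16100 against 14104 in culture 2, and the part of depth was not tested.

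The genes whose pattern over cells was most like that of each Id gene were ranked by Pearson's r over all genes, taking the value nearer 0 of the 2 cultures. All cells of a culture share one library, and correlations in sparse counts are weak, so these are descriptions without a test. A correlation of at least 0.1 in both cultures was reached with *Id2* by 2 genes, 0.0188% of all genes, and one of at most -0.1 by 5 genes, 0.0469%. With *Id3* these were 88 genes (0.825%) and 24 genes (0.225%). Culture 1 gave more such genes than culture 2, with 253 against 10 for *Id2* and 704 against 139 for *Id3*.

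Of the 6 genes most like *Id2*, the highest was *Basp1*, a growth-cone membrane protein, with r of 0.243 in culture 1 and 0.113 in culture 2. *Lhfpl3*, a membrane protein known as an oligodendrocyte progenitor marker, had 0.217 and 0.102, and *Cntn1*, the adhesion molecule contactin, 0.206 and 0.0913. They were followed by *Eef1a1*, a translation elongation factor, at 0.172 and 0.0888, by the long non-coding RNA *Pantr1* at 0.187 and 0.0847, and by *Fxyd6*, a regulator of the sodium pump, at 0.131 and 0.0813. Of these, *Basp1* and *Lhfpl3* passed 0.1 in both cultures.

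Lowest against *Id2* were *Rfx4*, a winged-helix factor of ciliated neural progenitors, at -0.154 and -0.125, and *Kcnc1*, a voltage-gated potassium channel, at -0.176 and -0.120. *Igfbp2*, an insulin-like growth factor-binding protein made by neural progenitors and astroglia, had -0.229 and -0.106. *Rab5if* had -0.136 and -0.105.

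*Id3* was most like *Igfbp2*, with r of 0.362 in culture 1 and 0.260 in culture 2. Next came *Slc1a3*, the glutamate transporter GLAST of radial glia and astrocytes, at 0.339 and 0.234, and *Mt3*, a brain metallothionein, at 0.356 and 0.210. *Txn1*, thioredoxin, had 0.272 and 0.207, *Pcp4l1* 0.294 and 0.204, and *Ndufc2*, a subunit of respiratory complex I, 0.260 and 0.185. With log2 total UMIs taken out, *Igfbp2* kept 0.293 and 0.256 and *Slc1a3* 0.283 and 0.230. Among the lowest against *Id3* were *Eef1a1* (-0.262 and -0.198), *Basp1* (-0.267 and -0.192) and *Lhfpl3* (-0.282 and -0.150).

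The 15 genes named for *Id2* or *Id3* had opposite signs with the other Id gene in both cultures. Of the genes called with both, *Basp1* and *Lhfpl3* were positive with *Id2* and negative with *Id3*, and *Igfbp2*, *Rab5if* and *Atp5g1* were negative with *Id2* and positive with *Id3*. No gene was called in the same direction with both. These 5 genes are 5 of the 7 called with *Id2* and 5 of the 112 called with *Id3*. *Atp5g1*, a subunit of ATP synthase, is outside the named set and was added after its values were seen.

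**Figure D4:**
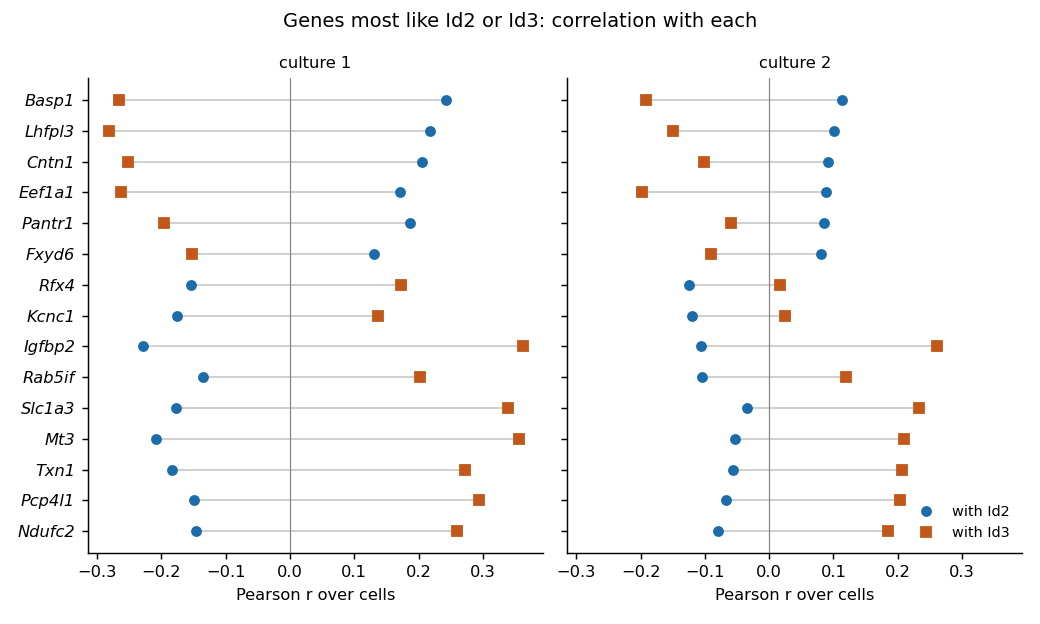
Pearson's r over cells (x axis) with *Id2* (circles) and with *Id3* (squares) for the 15 genes named as highest or lowest with either (y axis), in culture 1 (left) and culture 2 (right). Each of these genes has opposite signs with *Id2* and *Id3* in both cultures, and in culture 2 *Rfx4* and *Kcnc1* lie near 0 with *Id3*, at 0.0166 and 0.0252.

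The size of these relations is easier to read in the depth-matched cells, split by whether a gene was detected. The genes split here and below were named for their correlations over cells that include these. The direction of the ratios thus follows from that choice and adds no support to it. In culture 1 mean *Id2* was 3.92 ± 0.167 (SE over cells) in the 954 cells with *Lhfpl3* and 2.42 ± 0.0986 in the 1406 cells without it, a ratio of 1.62. In culture 2 it was 3.11 ± 0.108 in 929 cells with *Lhfpl3* and 2.71 ± 0.0487 in 3491 cells without it, a ratio of 1.15. Mean *Id3* ran the other way, at 2.62 ± 0.14 with and 4.25 ± 0.149 without *Lhfpl3* in culture 1, a ratio of 0.615, and at 4.96 ± 0.172 with and 6.28 ± 0.1 without it in culture 2, a ratio of 0.789. The median depths of the compared cells were 15820 and 16783 UMIs in culture 1 and 15216 and 14929 in culture 2.

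For *Slc1a3* the difference in *Id3* was larger. Mean *Id3* was 3.79 ± 0.113 in 2177 cells with and 1.24 ± 0.183 in 183 cells without *Slc1a3* in culture 1, a ratio of 3.05, and 6.12 ± 0.0905 in 4183 cells with and 3.87 ± 0.3 in 237 cells without it in culture 2, a ratio of 1.58. With and without *Pcp4l1*, mean *Id3* had a ratio of 1.95 in culture 1 and 1.41 in culture 2. Mean *Id2* with over without *Rfx4* was 0.732 and 0.822, and with over without *Kcnc1* 0.684 and 0.860. Even in this depth window, cells with each of these genes were deeper than cells without it in both cultures. For *Slc1a3* the medians were 16690 and 14509 UMIs in culture 1 and 15019 and 14387 in culture 2. For *Pcp4l1* they were 17181 and 15415 in culture 1. The part of depth in these ratios was not tested.

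The genes of the BMP pathway and of the factors that Id proteins act on were then read against both Id genes. Of 94 listed pathway genes, 46 were in the table. None was called with *Id2*, for which 0.0188% and 0.0469% of all genes were called as positive and negative, so this count is near the background. With *Id3*, 2 were called, both positive, where 0.825% of all genes were. The median of the nearer r over the 46 genes was 0 with either Id gene, as it was over all genes.

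Among BMP ligands, *Bmp7* was the only one in the table, detected in 53.4% and 35.9% of cells of culture 1 and culture 2, with r of 0.0835 and 0.0121 with *Id3* and -0.0519 and -0.0358 with *Id2*. Of 6 receptors in the table, the type I receptor *Bmpr1a* had the highest nearer r with *Id3*, at 0.0723 and 0.0721, and had 0.0218 and 0.0904 with *Id2*. It was detected in 47.0% and 41.4% of cells. The type II receptor *Bmpr2* had 0.0149 and 0.0238 with *Id2* and 0.0241 and 0.0224 with *Id3*.

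None of the 5 extracellular antagonists in the table was called; *Fstl1*, a secreted follistatin-like protein, had 0.0993 and 0.0283 with *Id3*. None of the 11 SMAD genes and regulators was called. *Smad1* and *Smad5*, which carry the BMP signal, had r between -0.0503 and 0.0415 with either gene in either culture. *Smad7*, an inhibitory SMAD and itself a BMP target, was detected in 2.26% and 2.68% of cells, and had r of -0.0466 and 0.0149 with *Id3*. *Smad9*, which also carries the BMP signal, was detected in 0.800% and 1.12% and had -0.00119 and 0.0435.

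E proteins, the binding partners of Id proteins, were all 3 in the table. *Tcf4* and *Tcf12* had r of 0.123 and 0.134 with *Id2* and of -0.122 and -0.130 with *Id3* in culture 1, and of 0.0443 and 0.0516 with *Id2* and -0.00284 and -0.0184 with *Id3* in culture 2. *Tcf3* was between -0.00292 and 0.0413 throughout. *Olig2*, the oligodendroglial basic helix-loop-helix factor and the only member of its list in the table, was detected in 97.3% and 91.9% of cells and had 0.102 and 0.0483 with *Id2* and -0.0986 and 0.0134 with *Id3*.

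*Hes1*, a repressor and target of Notch that is also a helix-loop-helix protein, was called with *Id3*, at 0.153 and 0.132, and had -0.1004 and -0.0106 with *Id2*. *Lfng*, a glycosyltransferase that modifies Notch, was called with *Id3* as well, at 0.221 and 0.161, and had -0.124 and 0.0341 with *Id2*. *Dll3*, a Notch ligand-like protein of differentiating cells, had 0.205 and 0.0322 with *Id2* and -0.179 and -0.0609 with *Id3*. The other Notch genes and the 5 genes of the LIF and STAT3 pathway in the table were not called, nor were the 5 CDK inhibitors. Of these, *Cdkn1a*, the inhibitor p21, had 0.0717 with *Id3* in culture 1 and -0.0910 in culture 2.

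Levels of *Id2* and *Id3* were next read in cells that held several markers of a cell type. Cells were picked by how many listed markers they held. In culture 1 the 789 cells with at least 3 of 5 oligodendrocyte progenitor markers (*Pdgfra*, *Cspg4*, *Olig2*, *Sox10*, *Lhfpl3*) had a mean *Id2* of 4.62 ± 0.212 (SE over cells) against 2.99 over all cells, and a mean *Id3* of 2.29 ± 0.136 against 3.83. In culture 2 the 368 such cells had a mean *Id2* of 3.39 ± 0.185 against 2.91 and a mean *Id3* of 4.03 ± 0.232 against 5.65. This class rests largely on *Lhfpl3*, which was named above for its relation with both Id genes and was held by 97.0% and 97.3% of these cells. With at least 2 of the other 4 markers instead, a choice made after seeing the data, mean *Id2* was 3.97 ± 0.163 and mean *Id3* 2.74 ± 0.117 in 1175 cells of culture 1. In 995 cells of culture 2 they were 2.96 ± 0.1 and 5.13 ± 0.168. Among depth-matched cells of culture 2, those with and without 2 such markers had a mean *Id2* of 2.94 ± 0.145 and 2.78 ± 0.0468 and a mean *Id3* of 5.80 ± 0.247 and 6.03 ± 0.0935, which lie within 2 SE of each other. In culture 1 the same comparison gave 3.996 ± 0.251 and 2.82 ± 0.0955 for *Id2* and 2.12 ± 0.164 and 3.91 ± 0.123 for *Id3*. Cells holding *Lhfpl3* remain in both of these groups. With those cells left out, mean *Id2* of culture 1 was 2.49 ± 0.306 and 2.41 ± 0.104, so its difference was no longer seen. Mean *Id3* was then 2.82 ± 0.321 and 4.42 ± 0.161. In culture 2 the values were 2.75 ± 0.149 and 2.71 ± 0.0515 for *Id2* and 6.03 ± 0.288 and 6.31 ± 0.107 for *Id3*.

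Cells with at least 3 of 5 astroglial markers (*S100b*, *Aldh1l1*, *Gja1*, *Slc1a2*, *Sparcl1*) were high in *Id3*, with means of 4.86 ± 0.141 in 1659 cells of culture 1 and 6.80 ± 0.244 in 576 cells of culture 2. Their mean *Id2* was 2.27 ± 0.0742 in culture 1, below that of all cells, and 3.04 ± 0.117 in culture 2, within 2 SE of that of all cells. Cells with at least 2 of 4 neuroblast markers (*Dcx*, *Gad1*, *Nrxn3*, *Elavl3*) had a mean *Id3* of 2.91 ± 0.205 in 482 cells of culture 1 and 3.86 ± 0.289 in 198 cells of culture 2, below all cells in both, and a mean *Id2* of 4.12 ± 0.259 and 3.18 ± 0.284. The 7 radial glia markers were *Fabp7*, *Nes*, *Vim*, *Pax6*, *Sox9*, *Slc1a3* and *Hopx*. Cells with at least 6 of them were closer to all cells for *Id3*, at 4.14 ± 0.137 and 5.70 ± 0.152. They had a mean *Id2* of 2.52 ± 0.0753 and 3.06 ± 0.0838. *Slc1a3* was itself named above for its correlation with *Id3*.

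**Figure D5:**
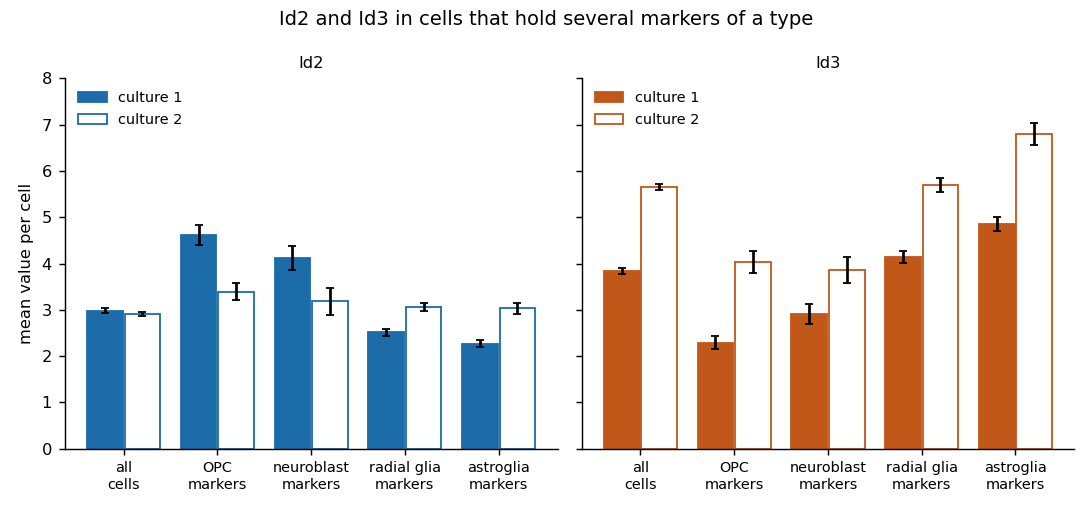
Mean normalised value per cell (y axis, from 0) of *Id2* (left) and *Id3* (right) in all cells and in cells that hold several markers of oligodendrocyte progenitors (OPC), neuroblasts, radial glia or astroglia (x axis); filled bars, culture 1; open bars, culture 2; error bars, SE over cells. The scale of each gene differs between cultures, so bars are to be read within a culture: cells with OPC markers have the highest *Id2* (4.62 and 3.39) and cells with astroglial markers the highest *Id3* (4.86 and 6.80) of the 5 bars. Nearly all cells of the OPC class hold *Lhfpl3* (97.0% and 97.3%).

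The classes differed in depth, at a median of 23254 UMIs for the astroglial class and 17510 for the oligodendrocyte progenitor class of culture 1 against 19477 over all its cells, so the number of markers was also read in the depth-matched cells. There, mean *Id2* of culture 1 went from 2.41 ± 0.105 in cells with 1 oligodendrocyte progenitor marker through 3.35 ± 0.168 with 2 to 4.78 ± 0.37 with 3, and mean *Id3* from 4.38 ± 0.161 through 2.97 ± 0.164 to 1.80 ± 0.201. In culture 2 mean *Id2* was 2.44 ± 0.166 with no marker, 2.73 ± 0.0535 with 1, 2.95 ± 0.091 with 2 and 3.17 ± 0.293 with 3. Mean *Id3* of culture 2 was 5.88 ± 0.363, 6.32 ± 0.111, 5.34 ± 0.161 and 5.38 ± 0.487, with no steady course. *Lhfpl3* is among the markers counted here, and it was named from its correlation with both Id genes in these same cells. The steps in *Id2* of culture 1 can therefore not be read apart from *Lhfpl3*. Among cells without it, mean *Id2* was alike with more and with fewer of the other markers, at 2.49 and 2.41. Depth still differed over the steps of culture 1 inside the depth window, at a median of 16785 UMIs with 1 marker and 15282.5 with 3. The part of depth in these steps was not tested.

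Along the astroglial markers mean *Id3* was higher with more markers in both cultures. In culture 1 it was 2.78 ± 0.197 with none and 4.47 ± 0.508 with 4 of them, and in culture 2 it was 5.20 ± 0.14 with none and 7.06 ± 0.372 with 3. Over the same classes mean *Id2* was 3.81 ± 0.229 and 2.54 ± 0.331 in culture 1 and 2.85 ± 0.0823 and 2.84 ± 0.16 in culture 2. Over the neuroblast markers mean *Id3* was 3.82 ± 0.134 with none and 2.31 ± 0.355 with 2 in culture 1, and 6.14 ± 0.116 and 4.33 ± 0.519 in culture 2, whereas *Id2* had a ratio of 1.47 in culture 1 and 0.941 in culture 2 over the same classes. With radial glia markers mean *Id3* of culture 1 was 1.87 ± 0.364 in 72 cells with 3, 3.75 ± 0.212 with 4, 3.64 ± 0.147 with 5 and 3.67 ± 0.271 with 6. *Slc1a3*, named from its correlation with *Id3* in these same cells, is among these markers. So is *Sox9*, which had r of -0.197 and -0.103 with *Id3*. No count without *Slc1a3* was made, so *Id3* over these classes can not be read apart from it. In culture 2 it was 5.37 ± 0.365 with 3 and 7.39 ± 0.694 in 74 cells with 7. The ratios of most over fewest were 1.96 and 1.38 for *Id3* and 0.766 and 1.15 for *Id2*. Depth still differed over these classes inside the depth window. In culture 1 the median was 15407 UMIs with no astroglial marker and 17912 with 4. It was 16640 with no neuroblast marker and 15280 with 2, and 14497.5 with 3 radial glia markers and 17148 with 6. The part of depth in these differences was not tested.

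No class of cells known to lack the Id genes was at hand to measure free RNA in the droplets. The lowest share of cells with *Id3* above 0 in the 4 marker classes over all depths was 59.6% (56.1 to 63.0%), in the oligodendrocyte progenitor class of culture 1, and that of *Id2* was 65.4% (63.1 to 67.7%), in the astroglial class of culture 1. In the depth-matched groups the lowest were 48.6% for *Id3*, in 72 cells with 3 radial glia markers, and 55.1% for *Id2*, in 127 cells with 4 astroglial markers, both in culture 1. Of 7 radial glia markers, *Sox9* was called negative with *Id3*, at -0.197 and -0.103, and *Slc1a3* positive. Of 5 astroglial markers, *Sparcl1*, a matrix protein of astrocytes, was called positive, at 0.118 and 0.115. *S100b* of the same list had -0.0702 and 0.0301. Of 5 oligodendrocyte progenitor markers, *Lhfpl3* was called negative with *Id3* and positive with *Id2*. Over all genes, 0.825% were called positive and 0.225% negative with *Id3*, and 0.0188% positive with *Id2*. None of the listed markers of intermediate progenitors, microglia, endothelium, mural cells, choroid plexus or erythroid cells was in the table, so these cell types were not read here.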

How the data were processed

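Single-cell RNA-seq (10x Chromium) of 2 replicate neurosphere cultures was used. Per the paper's methods, the authors quantified spliced counts with Alevin (Salmon 1.3.0 in the submitters' notes) on GRCm38, removed outlying cells, including those with outlying doublet scores, removed mitochondrial and rarely found genes, and normalised cells by library size. The deposited expression values are a normalised signal on a linear scale, and not counts. The authors also deposited the summed estimated counts of each cell as its total UMIs, and the cell-cycle position and stages are other values from the authors' per-cell table. The methods also name an integration of both samples with Seurat 3.2.2, and whether the deposited values carry it is not given in the sources used here. The smallest nonzero values of some genes differ between the cultures. Gene symbols were matched for 10662 of 10666 genes. No further filter was put on cells, and no doublet caller was run. The kit version differs between the labels and the paper.

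Values were transformed as log2(value + 1). Periodic loess lines used tripled data, degree 2 and a span of 0.3 on 401 positions, and R² used 2 harmonics of the position. It is not stated in the sources used here whether the Id genes were among the genes that gave the position. Correlations were computed over the cells of each culture. Marker classes need 3 of 5 (oligodendrocyte progenitors, astroglia), 2 of 4 (neuroblasts) or 6 of 7 (radial glia) markers with a value above 0. Software was R 4.3.3 and Seurat 5.3.0 for its gene lists, and numpy 2.4.6, pandas 2.3.3 and scipy 1.17.1 under Python 3.11.15. The fits were tested on simulated data. The genes named are the Id genes, all listed genes of the table, and for each Id gene the 6 genes with the highest and the 4 with the lowest nearer correlation, both cultures having the same sign; 2 genes under this rule are not reported here. The Id genes and the lists were chosen with earlier results of these data known. With 1 condition and 2 cultures results carry no test or p-value. Exact 95% binomial intervals cover counting error only. Alternatives were each culture alone, depth-matched cells, another scale or pseudocount, other spans, thresholds and position, depth or position taken out, and, chosen after seeing the data, leaving out barcodes found in both cultures and an oligodendrocyte progenitor class without *Lhfpl3*.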

Additional observations from a re-analysis of the deposited data

How the results depend on the processing

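The cultures differ in the scale of *Id2* and *Id3* values, so a mean over both is only a summary of settings. Of 92 alternatives, 69 stayed within the spread between cultures (for counts, within 1.5 times), 23 moved and 0 reversed. For measures other than counts, each of 2 cultures alone lies within this spread by construction. Those settings are among the 69 and do not show that a value is stable. The cause was not tested where none is named. Over both cultures mean *Id2* was 2.95 (2.91 to 2.99 with each culture alone), 2.77 when values were multiplied by total UMIs over their mean, and 2.87 as the median of nonzero values; mean *Id3* was 4.74 (3.83 to 5.65). The r of *Id2* and *Id3* averaged 0.105 (0.0048 to 0.205), and 0.105 without the barcodes found in both cultures. With thresholds of 0.02 and 0.01 the number of position-dependent genes was 890 (8.34%) and 1594 (14.9%) against 428, with neither Id gene among them; with each culture alone it was 454 to 597. *Id2* passed 0.01 only with total UMIs in the fit. The range of the *Id2* line was 0.44 (0.35 to 0.54), 0.71 at a span of 0.1, 0.19 at 0.5 and 0.26 on a position from the S and G2M genes of Seurat; that of *Id3* was 0.46 (0.41 to 0.52), 0.59 and 0.25 at these spans. Genes called with *Id2* were 7 (10 to 253 with each culture alone: culture 2 gave 10 and culture 1 gave 253), 4 with the position taken out, 156 at a threshold of 0.05 and 0 at 0.2. With *Id3* they were 112 (139 to 704, in culture 2 and culture 1), 667 at 0.05 and 5 at 0.2. At 0.05, 3 of the 46 pathway genes were called with *Id2* and 5 with *Id3*, where 156 and 667 of 10664 genes were. These include negative calls, of *Cdkn2b* with *Id2* and of *Dll3* with *Id3*. With 1 marker more, mean *Id3* of the oligodendrocyte progenitor class over both cultures was 1.75 against 3.16 (2.29 to 4.03), in fewer cells by construction, and 3.93 with 2 of 4 markers without *Lhfpl3*, where mean *Id2* was 3.47; the classes' other means were *Id2* 4.004 (3.39 to 4.62) there, *Id2* 2.65 (2.27 to 3.04) and *Id3* 5.83 (4.86 to 6.80) for astroglia, 3.65 (3.18 to 4.12) and 3.39 (2.91 to 3.86) for neuroblasts, and 2.79 (2.52 to 3.06) and 4.92 (4.14 to 5.70) for radial glia. No paired analysis was possible because the 2 cultures are replicates of a single group.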
